A study of Mus musculus with 9 samples.

Results

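The genes described here are 10 members of the bone morphogenetic protein (BMP) pathway, taken by symbol from a table of 24100 genes. The list was chosen with earlier results of these data known. Its members are the ligands Bmp2, Bmp4 and Bmp7, the secreted antagonist Grem1, the inhibitory SMADs Smad6 and Smad7, and the target genes Id1, Id2, Id3 and Id4. All 10 were found in the table and all 10 passed the filter on low counts, which kept 14761 genes. Poly(A) RNA came from mouse embryonic stem cells that had been differentiated towards neural cells. Every library is also marked 4D, which the labels do not spell out. The H4K91R libraries are from cells with a stable PiggyBac transgene for HA-tagged histone H4 in which lysine 91 was replaced by arginine, and in the H4K91Q libraries glutamine replaced it. The H4WT libraries carry the same kind of transgene with wild-type tagged H4, so every group carries a tagged histone gene, the labels name no deletion of the own H4 genes of the cells, and no group without a transgene was analysed here. Each group has 3 libraries. The labels name no clone and no promoter, and they do not say whether replicates are separate differentiations, so p-values measure only the spread between these libraries. The study compared the mutants with H4WT to find genes whose expression changes in the differentiated cells.

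BMPs are secreted ligands that bind a pair of receptor types, whose kinase activity switches on SMAD1, SMAD5 and SMAD9. These join SMAD4 in the nucleus and switch on target genes, with the Id genes among the best known. Id proteins have a helix-loop-helix domain but no DNA-binding region, and they hold E proteins away from the proneural factors that need them as partners. In the embryo BMP signalling holds back neural fate, and antagonists such as Gremlin and Noggin bind the ligands outside the cell. SMAD6 and SMAD7 damp the signal inside the cell, SMAD7 also in the TGF-beta branch, and both genes are themselves induced by the pathway.

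The promoters of Id2, Id3, Id4 and Grem1 are shown because Id2 and Id4 were higher in the mutants, Grem1 was lower, and Id3 passed the test in neither direction. Each is the 250 bases before the start of the RefSeq transcript (GRCm38.p6), and 6 of the 10 genes matched the promoter table by symbol. The intervals are chr12:25096093-25096342 for Id2 and chr2:113758649-113758898 for Grem1, both read from the minus strand, and chr4:136143572-136143821 for Id3 and chr13:48260866-48261115 for Id4, both from the plus strand. Capitals mark GGCGCC, a GC-rich element known to bind SMAD1 and SMAD5, which reads alike on both strands.
Id2: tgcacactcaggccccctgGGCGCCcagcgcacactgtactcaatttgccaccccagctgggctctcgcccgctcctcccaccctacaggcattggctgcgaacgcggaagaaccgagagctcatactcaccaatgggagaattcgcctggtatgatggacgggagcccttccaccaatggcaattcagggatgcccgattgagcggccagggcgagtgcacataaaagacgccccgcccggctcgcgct
Id4: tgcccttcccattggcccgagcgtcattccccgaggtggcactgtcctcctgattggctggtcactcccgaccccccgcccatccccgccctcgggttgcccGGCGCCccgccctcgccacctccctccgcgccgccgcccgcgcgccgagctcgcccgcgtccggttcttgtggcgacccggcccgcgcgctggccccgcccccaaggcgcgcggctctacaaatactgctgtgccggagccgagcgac
Grem1: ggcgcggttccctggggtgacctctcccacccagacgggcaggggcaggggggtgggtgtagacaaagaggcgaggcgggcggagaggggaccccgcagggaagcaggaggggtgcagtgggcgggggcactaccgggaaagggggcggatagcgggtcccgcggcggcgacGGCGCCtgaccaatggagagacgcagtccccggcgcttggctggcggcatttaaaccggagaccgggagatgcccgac
Id3: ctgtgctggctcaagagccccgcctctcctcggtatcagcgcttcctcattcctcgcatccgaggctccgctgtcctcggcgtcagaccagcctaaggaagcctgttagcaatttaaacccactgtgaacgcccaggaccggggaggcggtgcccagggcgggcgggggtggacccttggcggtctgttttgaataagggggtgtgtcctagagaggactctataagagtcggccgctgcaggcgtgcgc
GGCGCC begins 231 bases before the start in Id2, 148 in Id4 and 78 in Grem1, and it is absent from these windows of Id3, Bmp4 and Smad6. Of all 32851 promoters of the same length 9.59% hold it. The SMAD palindrome GTCTAGAC was in none of the 6 windows and in 0.167% of all promoters. The spaced element GGCGCC, then NNNNN, then GTCT, which contains the first motif, was also in none of the 6 and in 0.07% of all promoters. The motifs were searched on both strands. The element thus lay before Id2 and Id4, which were higher in the mutants, and before Grem1, which was lower.

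Total counts ran from 8970553 to 28887501 per library, and levels are given as CPM, counts scaled to a common library total with TMM normalization factors. The tag of the transgene cannot be seen in gene counts, so expression of the mutant histones was not checked here. The neural label holds in part. All 8 neuronal markers were detected in every library, with a summed level of 789 to 977 CPM in H4K91R, 630 to 671 CPM in H4K91Q and 186 to 245 CPM in H4WT. Markers of other cells were also abundant, and the 7 fibroblast markers summed to 6620 to 7410 CPM in H4K91R, 7150 to 7810 CPM in H4K91Q and 5870 to 6880 CPM in H4WT. The 5 astroglial markers summed to 54.5 to 73.1 CPM in H4K91R and 61.2 to 71.5 CPM in H4K91Q, against 36.7 to 43.1 CPM in H4WT, and of these Gfap averaged under 1 CPM in each group and Aqp4 had no count in at least 1 library.

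Of the 10 genes, 3 were higher and 5 lower in H4K91R than in H4WT. Across all tested genes 21% were higher and 25.1% lower, 46.1% in all (edgeR quasi-likelihood test, Benjamini-Hochberg adjusted p below 0.05). In H4K91Q 3 were higher and 4 lower than in H4WT, against a background of 22.5% and 23.8%, or 46.3% in all. Bmp7, Id2 and Id4 were higher in both mutants, and Bmp2, Bmp4, Grem1 and Smad7 were lower in both. The libraries did not overlap for 8 of the 10 genes in H4K91R and for 7 in H4K91Q, against 55.1% of all tested genes in each. Both comparisons use the same H4WT libraries. The 10 genes were chosen with earlier results of these data known, so their counts and medians beside all genes are descriptive only. The median log2 change of the 10 genes was -0.25 in H4K91R and -0.22 in H4K91Q, beside medians of -0.03 and 0.013 over all tested genes. The balance over all genes depends on the scaling: with library size only, 5030 genes were higher and 2013 lower in H4K91R, beside 3093 and 3705 with TMM scaling, and in H4K91Q the counts were 5555 and 2071, beside 3314 and 3515. Library size scaling moved the median over all genes to 0.153 in H4K91R and 0.181 in H4K91Q.

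**Figure D1:**
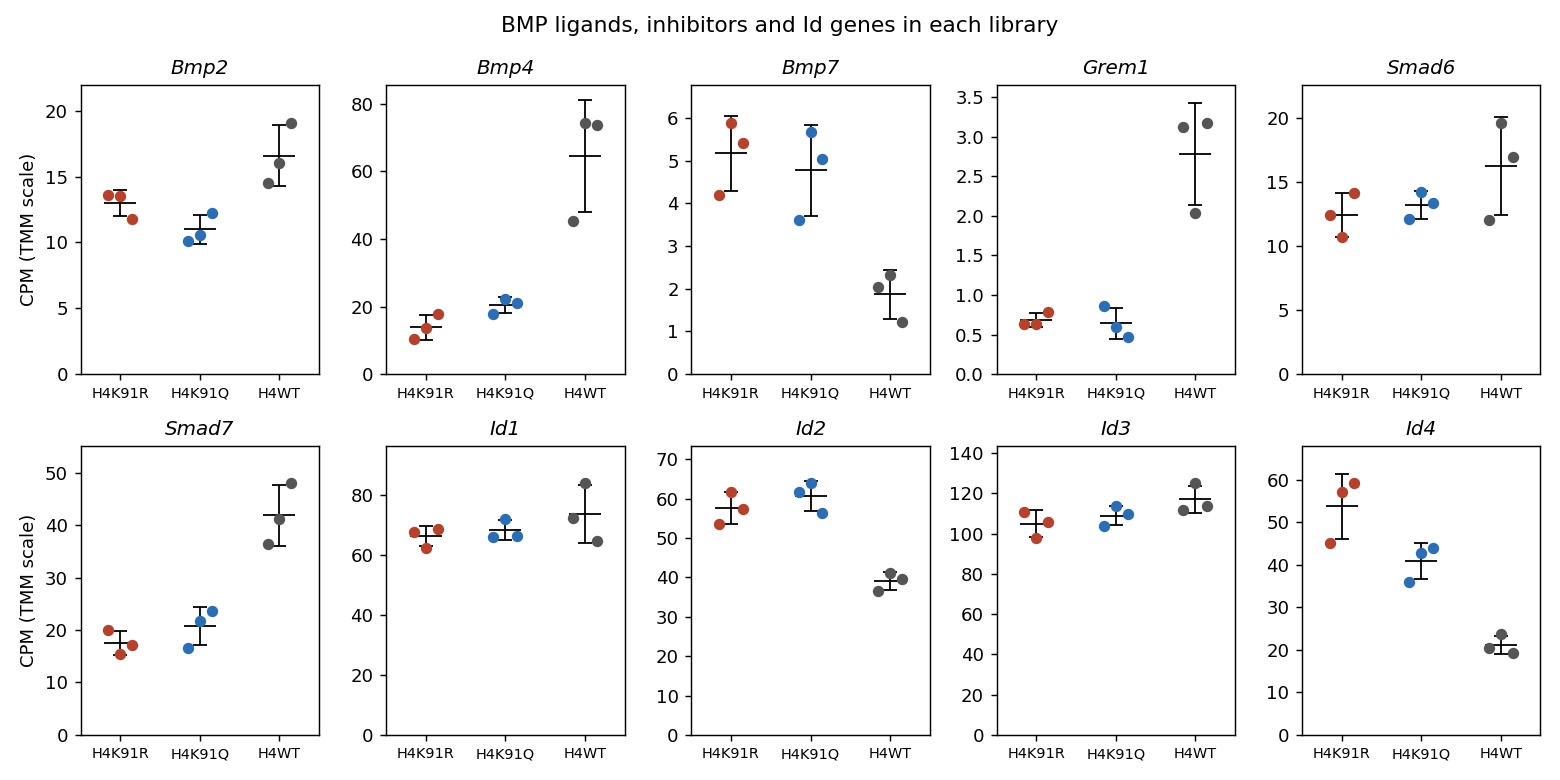
CPM on the TMM scale of each of the 10 genes in every library, with 3 points per group and black bars for the mean ± SD. Bmp4, Grem1 and Smad7 sit lower in both mutants than in any H4WT library, Bmp7, Id2 and Id4 sit higher, and the groups overlap for Id1 and Smad6.

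Bmp4 is a main ligand of the pathway and a classical inhibitor of neural fate (Entrez 12159, chromosome 14, 46383525 to 46390669, GRCm38.p6). Its level was 10.3, 13.6 and 17.7 CPM in H4K91R libraries 1 to 3 and 17.8, 22.3 and 21.1 CPM in H4K91Q, against 45.4, 74.4 and 73.8 CPM in H4WT. Every mutant library lay below every H4WT library, and H4WT replicate 1 was the lowest of its group. The mean was 13.9 ± 3.72 CPM in H4K91R and 20.4 ± 2.34 CPM in H4K91Q, against 64.5 ± 16.6 CPM in H4WT (SD, n = 3 libraries each). Bmp4 was 4.79-fold lower in H4K91R (log2 change -2.26 ± 0.204 SE, edgeR adjusted p = 1.82e-06). It was 3.2-fold lower in H4K91Q (log2 change -1.68 ± 0.189, edgeR adjusted p = 1.42e-05). In bulk RNA, fewer cells of a type and less RNA per cell cannot be told apart, here and for every gene below.

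Bmp2, a close relative of Bmp4 that uses the same receptors (Entrez 12156, chromosome 2, 133552159 to 133562896), moved the same way by less. It stood at 13.6, 13.5 and 11.8 CPM in H4K91R and 10.1, 10.6 and 12.2 CPM in H4K91Q, against 14.5, 16 and 19.1 CPM in H4WT. The mutant libraries all lay below the H4WT libraries. The log2 change was -0.59 ± 0.124 in H4K91Q (edgeR adjusted p = 0.00171). In H4K91R it was -0.34 ± 0.126 with an edgeR adjusted p of 0.0431, near the threshold. That call was kept in 4 of 16 alternative analyses, and its adjusted p reached 0.34 with library size scaling and 0.177 without H4WT replicate 3.

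Bmp7 (Entrez 12162, chromosome 2, 172868012 to 172940321), a ligand of another BMP subgroup, went the other way. Its level was 4.2, 5.89 and 5.41 CPM in H4K91R and 3.6, 5.68 and 5.04 CPM in H4K91Q, against 2.04, 2.33 and 1.22 CPM in H4WT. No mutant library overlapped the H4WT libraries. Bmp7 was 2.55-fold higher in H4K91R (log2 change 1.35 ± 0.259, edgeR adjusted p = 8.46e-04) and 2.37-fold higher in H4K91Q (1.24 ± 0.251, edgeR adjusted p = 0.00133). These values rest on 55 to 75 counts per library in H4K91R, 84 to 114 in H4K91Q and 10 to 63 in H4WT.

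Per kilobase of transcript the order of the 3 ligands was the same in each group, with Bmp4 first, then Bmp2, then Bmp7. Bmp4 had 6.72 ± 1.8 CPM per kb in H4K91R and 9.88 ± 1.13 in H4K91Q, against 31.3 ± 8.02 in H4WT. Bmp2 had 3.65 ± 0.287 and 3.08 ± 0.304 CPM per kb in H4K91R and H4K91Q, and 4.66 ± 0.653 in H4WT. Bmp7 had 1.41 ± 0.238 and 1.3 ± 0.29 CPM per kb in H4K91R and H4K91Q, and 0.509 ± 0.157 in H4WT. In each group, neighbours in that order lay further apart than their SDs. The summed level of the 3 ligands was 9.97 to 13.4 CPM per kb in H4K91R and 12.4 to 15.3 in H4K91Q, against 26.7 to 41.5 in H4WT. Within that sum Bmp4 held 56.3% ± 7.16 in H4K91R and 69.3% ± 1.25 in H4K91Q, against 85.4% ± 2.54 in H4WT. The share of Bmp7 was 12% ± 1.27 and 9.04% ± 1.11 in H4K91R and H4K91Q, against 1.48% ± 0.645 in H4WT. These levels use the longest coding transcript of each gene in GENCODE M21, which may not be the transcript these cells use.

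**Figure D2:**
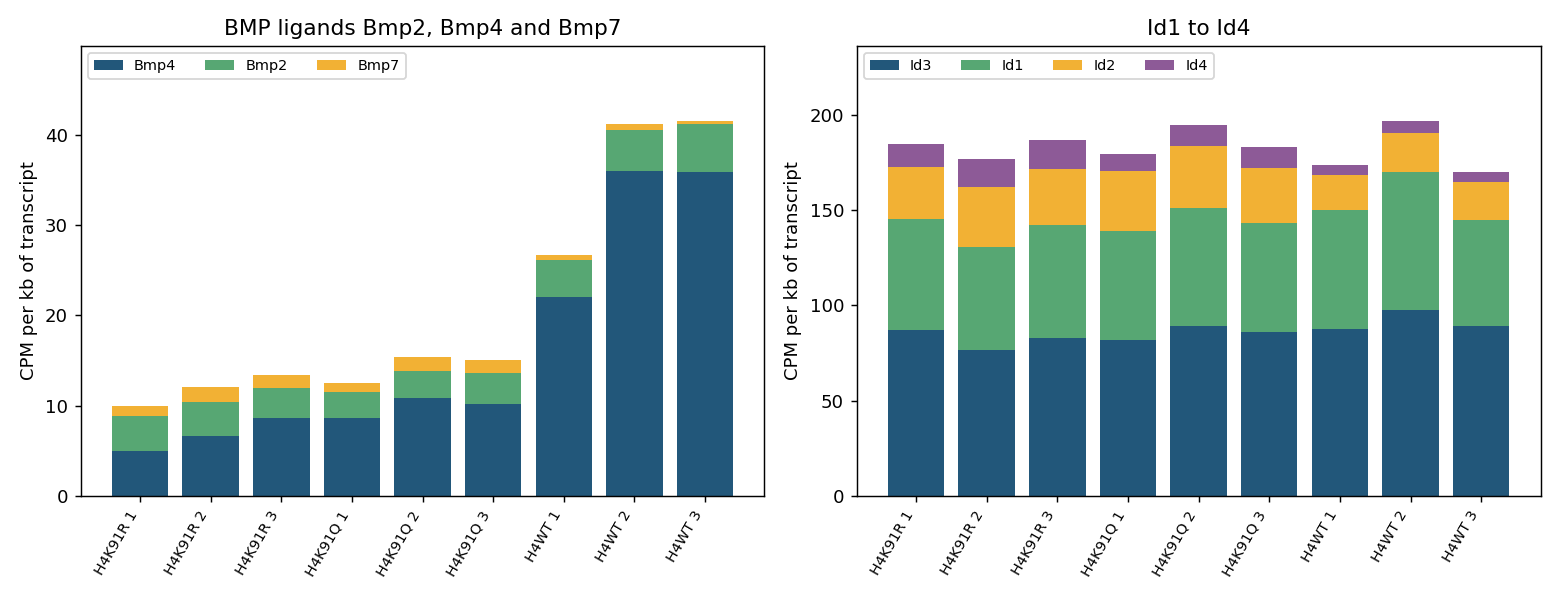
Stacked levels in each library, as CPM per kilobase of transcript, of the 3 ligands (left) and of the 4 Id genes (right). The ligand total is 9.97 to 15.3 CPM per kb across the 6 mutant libraries and 26.7 to 41.5 in the H4WT libraries, whereas the Id total spans 177 to 195 in the mutants and 170 to 197 in H4WT.

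Grem1 encodes Gremlin 1, which binds BMP2, BMP4 and BMP7 outside the cell (Entrez 23892, chromosome 2, 113748675 to 113758648). It was the least abundant of the 10 genes per kilobase, at 0.165 ± 0.0218 CPM per kb in H4K91R and 0.155 ± 0.0477 in H4K91Q, against 0.67 ± 0.156 in H4WT. Counts were 11, 8 and 8 in H4K91R and 20, 12 and 8 in H4K91Q, against 26, 55 and 26 in H4WT. On the CPM scale this is 0.633, 0.629 and 0.787 in H4K91R and 0.857, 0.597 and 0.468 in H4K91Q, against 3.12, 2.04 and 3.18 in H4WT. The H4WT libraries were again all above the mutant libraries. Grem1 was 3.87-fold lower in H4K91R (log2 change -1.95 ± 0.323, 95% interval -2.65 to -1.25, edgeR adjusted p = 2.82e-04). It was 3.96-fold lower in H4K91Q (-1.99 ± 0.298, interval -2.63 to -1.34, edgeR adjusted p = 1.41e-04).

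Smad7 encodes an inhibitory SMAD that blocks receptors of the BMP and TGF-beta branches (Entrez 17131, chromosome 18, 75367365 to 75395935). It stood at 20, 15.5 and 17.2 CPM in H4K91R and 16.6, 21.8 and 23.7 CPM in H4K91Q, against 36.4, 41.3 and 48 CPM in H4WT. The groups did not overlap. Smad7 was 2.37-fold lower in H4K91R (log2 change -1.24 ± 0.146, edgeR adjusted p = 1.61e-05) and 2.03-fold lower in H4K91Q (-1.02 ± 0.14, edgeR adjusted p = 6.65e-05). Smad6, the inhibitory SMAD that acts mainly on BMP signals (Entrez 17130, chromosome 9, 63953076 to 64022085), differed less. Its level was 12.4, 10.7 and 14.1 CPM in H4K91R and 12.1, 14.2 and 13.3 CPM in H4K91Q, against 12, 19.6 and 16.9 CPM in H4WT. H4WT replicate 1 lay within the mutant range, so the groups overlapped. The log2 change was -0.43 ± 0.164 in H4K91R with an edgeR adjusted p of 0.048, a call kept in 5 of 16 alternatives, and without H4WT replicate 2 the adjusted p was 0.327. In H4K91Q it was -0.33 ± 0.157 (edgeR adjusted p = 0.105, interval -0.67 to 0.01), and without H4WT replicate 1 it passed at 0.0122.

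The 4 Id genes did not move as a group. Id4, which marks neural stem and progenitor cells in the brain (Entrez 15904, chromosome 13, 48261116 to 48266028), stood at 45, 57.1 and 59.1 CPM in H4K91R and 36, 42.8 and 43.9 CPM in H4K91Q, against 20.4, 23.6 and 19.3 CPM in H4WT. All 6 mutant libraries lay above the 3 H4WT libraries. It was 2.49-fold higher in H4K91R (log2 change 1.32 ± 0.124, edgeR adjusted p = 2.49e-06) and 1.9-fold higher in H4K91Q (0.93 ± 0.123, edgeR adjusted p = 4.96e-05). Id2, a family member that also answers other signals (Entrez 15902, chromosome 12, 25093799 to 25096092), stood at 53.6, 61.8 and 57.3 CPM in H4K91R and 61.8, 63.9 and 56.4 CPM in H4K91Q, against 36.5, 41.1 and 39.7 CPM in H4WT. It too was higher in every mutant library. The increase was 1.46-fold in H4K91R (log2 change 0.55 ± 0.0836, edgeR adjusted p = 1.43e-04) and 1.55-fold in H4K91Q (0.63 ± 0.0823, edgeR adjusted p = 4.64e-05).

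Id1 and Id3, the Id genes most often read as direct BMP targets, passed the test in neither mutant. Id1 (Entrez 15901, chromosome 2, 152736251 to 152737410) stood at 67.7, 62.4 and 68.7 CPM in H4K91R and 66.1, 72.1 and 66.3 CPM in H4K91Q, against 72.3, 83.8 and 64.5 CPM in H4WT. The groups overlapped. The log2 change was -0.16 ± 0.0926 in H4K91R, with a 95% interval of -0.36 to 0.04 (edgeR adjusted p = 0.174). In H4K91Q it was -0.12 ± 0.0913, with an interval of -0.32 to 0.08 (edgeR adjusted p = 0.306). Without H4WT replicate 3 the H4K91R difference passed, at a log2 change of -0.24 (edgeR adjusted p = 0.0496). Id3 (Entrez 15903, chromosome 4, 136143822 to 136145392) stood at 111, 98.1 and 106 CPM in H4K91R and 104, 114 and 110 CPM in H4K91Q, against 112, 125 and 114 CPM in H4WT. The H4K91R libraries all lay just under the H4WT libraries, while those of H4K91Q overlapped them. The log2 change of Id3 was -0.15 ± 0.0732 in H4K91R (interval -0.31 to 0.01, edgeR adjusted p = 0.106) and -0.1 ± 0.0724 in H4K91Q (interval -0.25 to 0.06, edgeR adjusted p = 0.289). The sign of both genes turned with library size scaling, where Id1 had 0.02 and 0.05 and Id3 had 0.03 and 0.07 in H4K91R and H4K91Q.

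Per kilobase the order of the family was Id3, Id1, Id2 and Id4 in each group. Neighbours in that order lay further apart than their SDs in each group. Id3 had 82.3 ± 5.2 CPM per kb in H4K91R and 85.5 ± 3.59 in H4K91Q, against 91.3 ± 5.4 in H4WT. Id1 had 57.1 ± 2.91 and 58.8 ± 2.94 CPM per kb in H4K91R and H4K91Q, and 63.4 ± 8.37 in H4WT. Id2 had 29.2 ± 2.08 and 30.8 ± 1.96 CPM per kb in H4K91R and H4K91Q, and 19.9 ± 1.19 in H4WT. Id4 had 14 ± 1.99 and 10.6 ± 1.11 CPM per kb in H4K91R and H4K91Q, and 5.49 ± 0.573 in H4WT. The summed Id level overlapped between groups, at 177 to 187 CPM per kb in H4K91R and 179 to 195 in H4K91Q, against 170 to 197 in H4WT. The makeup of that sum differed. Id4 held 7.65% ± 1.14 of it in H4K91R and 5.72% ± 0.505 in H4K91Q, against 3.04% ± 0.0764 in H4WT. Id2 held 16.1% ± 1.55 in H4K91R and 16.6% ± 0.902 in H4K91Q, against 11.1% ± 0.723 in H4WT. Id3, the largest share in each group, held 45% ± 1.96 in H4K91R and 46% ± 0.757 in H4K91Q, against 50.8% ± 1.48 in H4WT.

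**Figure D3:**
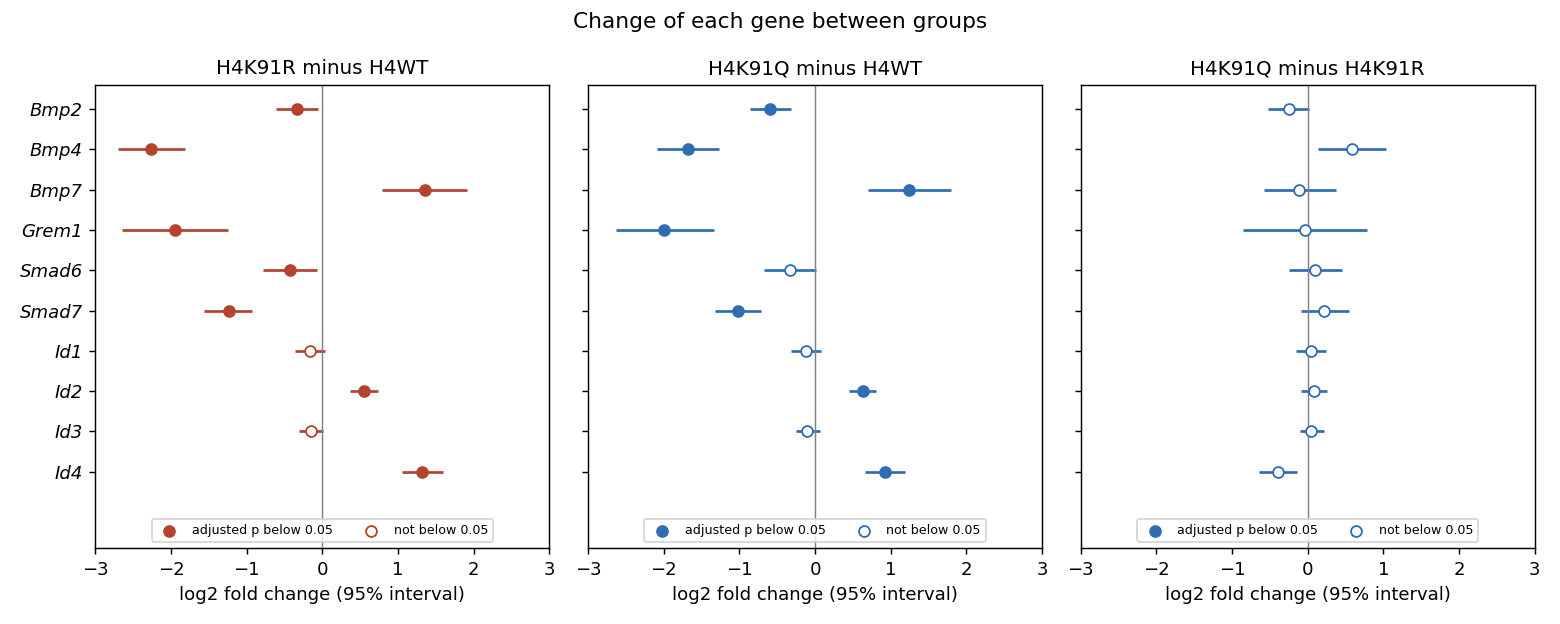
Log2 fold change of each gene with its 95% interval for H4K91R minus H4WT, H4K91Q minus H4WT and H4K91Q minus H4K91R, with filled points for an adjusted p below 0.05. Bmp4 and Grem1 lie furthest to the left in both comparisons with H4WT, at -2.26 and -1.95 in H4K91R, and no point is filled between the mutants.

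Between H4K91Q and H4K91R 0 of the 10 genes passed with edgeR, against 5.16% of all tested genes, and Bmp4 and Id4, 2 of the 10, had an unadjusted p below 0.05, as did 22.4% of all tested genes. The libraries of the mutants did not overlap for these 2 genes, against 25.4% of all tested genes. DESeq2 called 1 and limma-voom 0. The nearest was Id4, at 40.9 ± 4.25 CPM in H4K91Q and 53.7 ± 7.65 CPM in H4K91R, a log2 change of -0.39 ± 0.115 with an interval of -0.64 to -0.14 (edgeR adjusted p = 0.0694). It passed in 4 of 16 alternatives, among them DESeq2 (adjusted p = 0.0264). Bmp4 was 20.4 ± 2.34 CPM in H4K91Q and 13.9 ± 3.72 CPM in H4K91R, a log2 change of 0.58 ± 0.208 (interval 0.13 to 1.03, edgeR adjusted p = 0.123). It passed in 1 of 16 alternatives, the fit with the replicate number as a block (log2 change 0.59, edgeR adjusted p = 0.0112), which also called Id4 (0.0221). The intervals were narrowest for Id3 (-0.1 to 0.21), Id2 (-0.09 to 0.25) and Id1 (-0.16 to 0.24), and widest for Grem1 (-0.85 to 0.78), which for Grem1 is 0.555 to 1.71-fold.

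Likeness of profile was measured as the root mean square difference of centred log2 CPM over the 9 libraries, among 12517 genes of at least 2 CPM. Nearest to Bmp4 were Npr3 at 0.243, Cdh3 at 0.249 and Dlx5 at 0.261 log2 units. Npr3 encodes a natriuretic peptide clearance receptor and had 15.9 CPM in H4K91R and 27.8 CPM in H4K91Q, against 73.5 CPM in H4WT. Cdh3 encodes P-cadherin and had 5.83 and 9.73 CPM in H4K91R and H4K91Q, against 28.1 CPM in H4WT. Nearest to Id1 were Bag5 at 0.0449, Atg12 at 0.0485 and Coa4 at 0.049, genes with log2 changes of -0.18 to -0.07 in the mutants. Among the 10 genes themselves Id1 and Id3 were the closest pair, at 0.0675. Both changed little against H4WT, and by this measure any genes that change little lie close together. Shared control of the genes was not tested.

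Of the 70 tested genes in the surrounding lists, 72.9% passed in H4K91R and 65.7% in H4K91Q, against 46.1% and 46.3% of all tested genes. The 70 include 12 immediate-early genes, which answer handling of the cells, with 2 higher and 8 lower in each mutant. These shares are therefore not of pathway genes alone. Over all tested genes 21% were higher and 25.1% lower in H4K91R, and 22.5% and 23.8% in H4K91Q, beside each list below. Those lists were chosen with earlier results of these data known. Of the other BMP and GDF ligands, 8 of 11 were tested, and 0 were higher and 5 lower in H4K91R (median log2 change -1.04), with 0 higher and 4 lower in H4K91Q (median -0.98). Gdf6, a ligand of the dorsal neural tube and of skeletal joints, stood at 4.54, 1.73 and 1.87 CPM in H4K91R and 2.19, 3.49 and 3.1 CPM in H4K91Q, against 25.5, 13.3 and 20.3 CPM in H4WT. The groups were far apart, with log2 changes of -2.73 ± 0.328 and -2.72 ± 0.311 in H4K91R and H4K91Q (edgeR adjusted p = 2.01e-05 and 1.52e-05). Bmp6, of the same subgroup as Bmp7, did not share its direction and fell by 1.17 ± 0.197 in H4K91R and by 1.56 ± 0.194 in H4K91Q on the log2 scale (edgeR adjusted p = 3.12e-04 and 3.05e-05). Bmp8b was scarce, at 0.47 CPM in H4K91R and 1.19 CPM in H4K91Q, against 2.88 CPM in H4WT. It fell by 2.8 ± 0.481 in H4K91R and 1.4 ± 0.373 in H4K91Q, and its H4K91Q call ended without H4WT replicate 2 (adjusted p = 0.0739). Bmp10, Bmp15 and Gdf2 were too low to test.

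Receptors and co-receptors moved both ways, with 5 higher and 4 lower of 11 tested in H4K91R and 5 higher and 3 lower in H4K91Q (medians 0.16 and 0.06). Rgma, a membrane co-receptor for BMPs that also guides axons, stood at 50.5, 59.6 and 47.4 CPM in H4K91R and 33.9, 30.8 and 44.3 CPM in H4K91Q, against 18.1, 12.7 and 16 CPM in H4WT. All mutant libraries lay above those of H4WT. On the log2 scale Rgma rose by 1.79 ± 0.16 in H4K91R and 1.26 ± 0.159 in H4K91Q, and its relative Rgmb by 0.97 ± 0.0882 in H4K91R and 0.34 ± 0.088 in H4K91Q. Acvr2b, a type II receptor shared with activins, rose by 0.67 ± 0.104 in H4K91R and 0.57 ± 0.103 in H4K91Q. Among the falls was Bmpr2, chosen after its values were seen. It had 124 ± 16.5 CPM in H4K91R and 125 ± 9.37 CPM in H4K91Q, against 195 ± 30.3 CPM in H4WT. On the log2 scale Bmpr2 fell by 0.64 ± 0.118 in H4K91R and 0.64 ± 0.117 in H4K91Q (edgeR adjusted p = 6.34e-04 and 6.54e-04). The type I receptor Bmpr1a had 225 ± 6.38 CPM in H4K91R and 243 ± 10.4 CPM in H4K91Q, against 263 ± 9.91 CPM in H4WT. It fell by 0.22 ± 0.063 on the log2 scale in H4K91R (edgeR adjusted p = 0.0103), a call that ended with library size scaling (0.639) and without H4WT replicate 3 (0.0504), and the H4K91Q value of -0.11 did not pass.

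Among the 4 SMADs that carry the signal, 1 was higher and 2 lower in H4K91R, and 1 was higher and 0 lower in H4K91Q. Smad1, a BMP-activated SMAD, stood at 41.8, 44.6 and 43.8 CPM in H4K91R and 45.6, 45.9 and 43.9 CPM in H4K91Q, against 35.6, 36 and 33.8 CPM in H4WT, with log2 changes of 0.3 ± 0.071 in H4K91R and 0.36 ± 0.0697 in H4K91Q (edgeR adjusted p = 0.0036 and 9.99e-04). Smad9 was lower in H4K91R (-0.91 ± 0.223, edgeR adjusted p = 0.00478) and did not pass in H4K91Q (-0.33 ± 0.2). The common partner Smad4 had -0.17 ± 0.0622 in H4K91R (edgeR adjusted p = 0.0358), a call that was lost in most alternatives and whose sign turned with library size scaling (0.01). In H4K91Q Smad4 had -0.12, which did not pass and turned to 0.05 with that scaling.

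Of 13 tested secreted antagonists and modulators other than Grem1, 1 was higher and 5 lower in H4K91R, and 4 were higher and 5 lower in H4K91Q (medians 0.07 and 0.25). Nog encodes Noggin, which binds BMPs in the early neural plate, and stood at 8.57, 9.59 and 10.7 CPM in H4K91R and 7.16, 10.8 and 11.1 CPM in H4K91Q, against 16.7, 20.2 and 15.8 CPM in H4WT. It fell by 0.9 ± 0.171 in H4K91R and 0.89 ± 0.164 in H4K91Q on the log2 scale (edgeR adjusted p = 7.94e-04 and 6.73e-04), the direction of Grem1. Crim1, a membrane protein that binds BMPs, had 297 ± 16.3 CPM in H4K91R and 250 ± 15.1 CPM in H4K91Q, against 553 ± 46.6 CPM in H4WT. Bmper, a secreted BMP modulator, fell by 1.04 ± 0.0987 in H4K91R and 0.83 ± 0.0947 in H4K91Q on the log2 scale. Fst, the gene of follistatin, fell by 0.73 ± 0.0768 in H4K91R and 0.48 ± 0.0757 in H4K91Q. The largest change of the list was a rise. Chrdl1, chosen after its values were seen, had 7.73 CPM in H4K91Q against 1.33 CPM in H4WT. It rose there by 2.34 ± 0.339 on the log2 scale (edgeR adjusted p = 1.06e-04). In H4K91R its change of 0.59 ± 0.404 did not pass (edgeR adjusted p = 0.255), but it passed without H4K91R replicate 1 (0.0423) and with the replicate number as a block (0.0478).

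All 6 intracellular and membrane inhibitors other than Smad6 and Smad7 passed in both mutants, 5 lower and 1 higher (median log2 change -0.43 in H4K91R and -0.39 in H4K91Q). Skil encodes SnoN, a repressor of SMAD-driven transcription, and stood at 71.3, 60.7 and 52.4 CPM in H4K91R and 62.2, 69.6 and 65.6 CPM in H4K91Q, against 163, 139 and 167 CPM in H4WT. It fell by 1.34 ± 0.108 in H4K91R and 1.24 ± 0.106 in H4K91Q on the log2 scale (edgeR adjusted p = 7.79e-07 and 1.81e-06). Smurf1, a ubiquitin ligase for SMADs and receptors, fell by 0.67 ± 0.111 in H4K91R and 0.88 ± 0.11 in H4K91Q. The exception was Bambi, a decoy receptor and BMP target, which rose by 0.71 ± 0.118 in H4K91R and 0.71 ± 0.115 in H4K91Q (edgeR adjusted p = 3.06e-04 and 2.64e-04).

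Other genes known as BMP targets also moved both ways. In H4K91R 2 of 13 were higher and 7 lower (median -0.48), and in H4K91Q 2 were higher and 3 lower (median -0.12). The H4K91R count of 9 fell to 5 with DESeq2, to 4 without H4K91R replicate 2 and to 5 without H4WT replicate 2. Dlx5, a homeobox gene of neural plate border and bone, stood at 1.96, 2.67 and 2.07 CPM in H4K91R and 2.79, 3.29 and 2.69 CPM in H4K91Q, against 8.05, 9.07 and 10.8 CPM in H4WT. It fell by 2.06 ± 0.187 in H4K91R and 1.66 ± 0.169 in H4K91Q on the log2 scale (edgeR adjusted p = 1.89e-06 and 6.26e-06). Runx2, the main factor of bone-forming cells, fell by 0.75 ± 0.145 in H4K91R and by 0.39 ± 0.135 in H4K91Q, and the H4K91Q call (edgeR adjusted p = 0.0305) ended with library size scaling (0.185), without the filter (0.0509), with DESeq2 (0.0787) and without H4WT replicate 3 (0.102) or H4K91Q replicate 1 (0.11) or 2 (0.0553). Tfap2c, a factor of surface ectoderm and germ cells, had 3.35 ± 0.415 CPM in H4K91R and 8.59 ± 1.49 CPM in H4K91Q, against 4.75 ± 0.249 CPM in H4WT. It passed as lower in H4K91R (edgeR adjusted p = 0.0339), a call that ended in 8 of 16 alternatives, among them leaving out any 1 H4WT library (0.0543 to 0.135), and as higher in H4K91Q (0.00123).

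The E proteins, which Id proteins bind, were all higher: Tcf3, Tcf4 and Tcf12 passed in both mutants (median log2 change 0.7 in H4K91R and 0.46 in H4K91Q). Tcf12 stood at 255, 272 and 226 CPM in H4K91R and 250, 196 and 223 CPM in H4K91Q, against 156, 142 and 165 CPM in H4WT, with log2 changes of 0.7 ± 0.0982 in H4K91R and 0.53 ± 0.0978 in H4K91Q (edgeR adjusted p = 7.22e-05 and 6.86e-04). Tcf3 rose by 0.32 ± 0.0623 in H4K91R and 0.21 ± 0.062 in H4K91Q, and Tcf4 by 0.75 ± 0.167 in H4K91R and 0.46 ± 0.166 in H4K91Q. The H4K91Q call of Tcf4 ended without H4WT replicate 2 (adjusted p = 0.142) or 3 (0.0692) or H4K91Q replicate 1 (0.146), and that of Tcf3 without H4WT replicate 1 (0.0595).

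**Figure D4:**
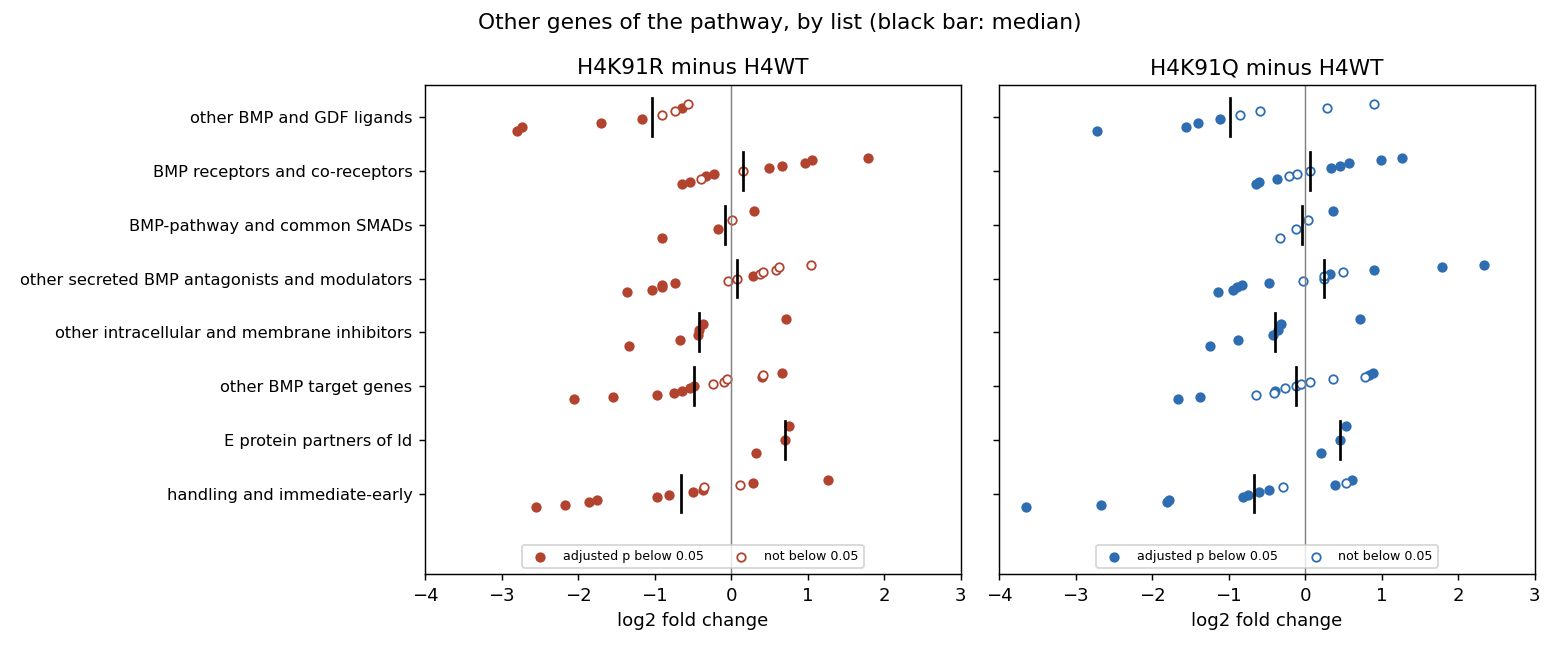
Log2 fold change of every tested gene of 8 lists, among them the immediate-early genes beside those of the pathway. H4K91R minus H4WT is on the left and H4K91Q minus H4WT on the right, with filled points for an adjusted p below 0.05 and a black bar at the median of each list. The medians of the other ligands lie at -1.04 and -0.98, and those of the E proteins at 0.7 and 0.46.

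Markers of some cell types also differed from H4WT in both mutants, while the endothelial sums overlapped and the pluripotent markers moved in opposite directions. The 6 smooth muscle markers, all lower in both mutants, summed to 474 to 751 CPM in H4K91R and 437 to 496 CPM in H4K91Q, against 3960 to 4750 CPM in H4WT, the direction of Bmp4, Grem1 and Smad7. The most abundant were Acta2, at 314 CPM in H4K91R and 245 CPM in H4K91Q against 2480 CPM in H4WT, and Tagln, at 175 and 158 CPM in H4K91R and H4K91Q against 1550 CPM in H4WT. The 7 neural progenitor markers, of which 6 were higher in each mutant and 1 was lower in H4K91Q, summed to 577 to 657 CPM in H4K91R and 418 to 480 CPM in H4K91Q, against 220 to 289 CPM in H4WT, the direction of Id4. The 6 pluripotent cell markers, 5 of them lower in H4K91R and 5 higher in H4K91Q, summed to 42 to 75.1 CPM in H4K91R and 158 to 288 CPM in H4K91Q, against 108 to 191 CPM in H4WT. The 6 endoderm markers summed to 531 to 566 CPM in H4K91R and 458 to 493 CPM in H4K91Q, against 574 to 656 CPM in H4WT. The 5 epithelial markers summed to 695 to 784 CPM and 769 to 887 CPM in H4K91R and H4K91Q, against 1210 to 1340 CPM in H4WT. The 7 markers of endothelium, where Id1 and Smad6 are known to be high, summed to 41.3 to 51.3 CPM and 44.7 to 54 CPM in H4K91R and H4K91Q, against 43.9 to 51.9 CPM in H4WT, and Cldn5 and Tie1 had no count in at least 1 library. Single markers under these sums moved both ways. Of 5 tested, 1 was higher and 1 lower in H4K91R, and 2 were higher and 1 lower in H4K91Q. Kdr had 2.89 and 2.91 CPM in H4K91R and H4K91Q against 7.68 CPM in H4WT, and Cdh5 had 10.2 and 12.4 CPM against 6.65 CPM. Of 12 immediate-early genes, which answer handling of the cells, 2 were higher and 8 lower in each mutant, with sums of 570 to 682 CPM and 650 to 705 CPM in H4K91R and H4K91Q, against 744 to 874 CPM in H4WT. Among them Atf3 fell by 1.76 ± 0.113 in H4K91R and 1.78 ± 0.111 in H4K91Q on the log2 scale. Fosb fell by 2.17 ± 0.176 in H4K91R and 2.67 ± 0.175 in H4K91Q, and Ier3 by 1.86 ± 0.168 in H4K91R and 1.81 ± 0.16 in H4K91Q. Beside these counts, 21% of all tested genes were higher and 25.1% lower in H4K91R, and 22.5% and 23.8% in H4K91Q. The part of these markers in the changes of the 10 genes was not tested.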

How the data were processed

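Expected counts per gene were deposited as whole numbers for 9 libraries of poly(A) RNA. Salmon 0.8.2, DESeq2 with no version or role, and the build mm10 are named, per the submitters' processing notes; for the annotation, trimming, strand setting and any rounding, the sources used here give nothing. Libraries were made with NEBNext Ultra II kits, per the labels' protocols.

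Entrez IDs were matched to symbols in a RefSeq table of GRCm38.p6, the patch release of mm10, and 55 of 24100 IDs had none. Genes were filtered with filterByExpr in edgeR 4.0.16 (R 4.3.3, minimum count 10), scaled by TMM (factors 0.911 to 1.06) and fitted with a quasi-likelihood model of 1 mean per group over all 9 libraries. The test was tried on simulated counts with 200 changed genes. Far more genes were called against H4WT in these data, so that trial does not cover the choice of scaling here. Tests were two-sided, with Benjamini-Hochberg adjustment over all 14761 tested genes and a threshold of 0.05. SE is the absolute log2 change divided by the root of F, and intervals are 95%. Counts of 3 correspond to 0.111 to 0.367 CPM, and such limits cover counting error only. Replicates within a group differed beyond sampling noise, with a chi-square per degree of freedom of 4.4 to 11.6.

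The members and lists were chosen with earlier results of these data known. Named beyond the 10 members were, for each list, up to 3 genes of at least 1 CPM with the smallest adjusted p against H4WT, plus Nog, Bmpr1a and Smad1. Bmpr2 was added after its values were seen and was not followed through the alternative fits. DESeq2 1.42.0, limma-voom (limma 3.58.1), other scalings, no filter, the compared groups only, a replicate block and leaving out each library were the alternatives. The labels give no batch and do not say what a replicate number marks. Deviations from the group means correlated at 0.141 to 0.198 in the 3 same-numbered pairs of H4K91Q and H4WT, against -0.239 to 0.0359 in their 6 other pairs. Differently numbered pairs reached 0.265 between H4K91R and H4WT and 0.223 between H4K91R and H4K91Q, so a pairing by number is not settled. The main fit has no block.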

Additional observations from a re-analysis of the deposited data

Results flagged for a closer look

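A test of the difference between the mutants (edgeR, H4K91Q minus H4K91R, adjusted over all tested genes) passed for 0 of the 10 genes and for 6 of the 70 tested genes of the surrounding lists, immediate-early genes included (8.57%), against 5.16% of all tested genes. All 6 were chosen by values in these data. Rgma, Rgmb and Tfap2c were named by adjusted p against H4WT, and Bmp5, Chrdl1 and Junb after their values in this test were seen. Rgma, with 36.3 ± 7.11 CPM in H4K91Q and 52.5 ± 6.31 CPM in H4K91R, had a log2 change of -0.54 (adjusted p = 0.0484), which ended without H4K91R replicate 1 (0.0884) or 2 (0.18), H4K91Q replicate 1 (0.164) or 2 (0.183), or H4WT replicate 3 (0.0563). Rgmb had a log2 change of -0.63 (adjusted p = 0.00199), with 37.5 CPM in H4K91Q and 58.1 CPM in H4K91R. Tfap2c had 1.37 (adjusted p = 0.00161), with 6.9, 9.16 and 9.72 CPM in H4K91Q against 2.88, 3.54 and 3.64 CPM in H4K91R. Bmp5, a BMP7-type ligand, had 0.92 (adjusted p = 0.00383), with 10.4, 11.2 and 10.5 CPM in H4K91Q against 5.87, 6.21 and 4.82 CPM in H4K91R. Chrdl1, a chordin-like antagonist, had 1.75 (adjusted p = 0.00996), with 5.79, 9.31 and 8.08 CPM in H4K91Q against 1.21, 2.67 and 3.35 CPM in H4K91R. Junb, an immediate-early gene, had 0.33 (adjusted p = 0.0436), with 79.7 CPM in H4K91Q and 63.3 CPM in H4K91R. That call ended with RLE scaling (0.0565) and in 7 of the 9 fits without 1 library (0.053 to 0.169). In all 6 genes the 3 libraries of each mutant did not overlap, as in 25.4% of all tested genes. Because these 6 genes are listed for passing this test on the same libraries, the lack of overlap adds nothing to it.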

How the results depend on the processing

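Bmp4, Bmp7, Grem1, Smad7, Id2 and Id4 kept their calls and directions against H4WT in all 16 alternatives, and so did Bmp2 in H4K91Q. Between 6 and 8 members were called in H4K91R and 7 or 8 in H4K91Q, with the same limits when 1 library was left out. All genes called numbered 5851 to 7043 in H4K91R and 5837 to 7626 in H4K91Q. Between the mutants 188 to 1093 genes were called when 1 library was left out, beside 761. The fits without H4K91R replicate 1 (410) or 2 (188) and without H4K91Q replicate 1 (298) or 2 (202) moved that count by over 1.5 times. Members called between the mutants numbered 1 without the filter and with DESeq2, 2 with the replicate block (Id4 at an adjusted p of 0.0221 and Bmp4 at 0.0112), and 0 or 1 when 1 library was left out, the 1 being Id4 without H4K91R replicate 1 (adjusted p = 0.0256). With the replicate block, the 10 members and the other named genes kept their calls in H4K91Q against H4WT, where same-numbered pairs correlated above the others. In the other comparisons same-numbered libraries correlated at -0.163 to 0.174 (H4K91R and H4WT) and -0.0518 to 0.198 (H4K91Q and H4K91R), with the replicate 1 pairs highest among them in both. Differently numbered pairs there reached 0.265 and 0.223. The block ended the H4K91R calls of Bmp2 (0.0521) and Smad4 (0.0666). Signs turned only for values that did not pass in the alternative. With library size only, Id1 had 0.02 and 0.05, Id3 0.03 and 0.07 and Smad4 0.01 and 0.05 in H4K91R and H4K91Q, and Bmpr1a had 0.06 in H4K91Q. Between the mutants, leaving out 1 library gave Bmp7 -0.27 to 0.07, at 0 without H4K91R replicate 2 and 0.07 without H4K91Q replicate 1. It gave Grem1 -0.32 to 0.13, at 0.06, 0.02 and 0.13 without H4K91R replicate 3 and H4K91Q replicates 2 and 3, and Id1 -0.01 without H4K91Q replicate 2. The causes were not tested. Depth limits Grem1, at 8 to 55 counts, and H4WT replicates 1 and 3 were the shallowest libraries.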

Other observations

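Bmp3, a ligand-like antagonist of BMP signalling, had 4.83, 14.3 and 17.3 CPM in H4K91R and 20.7, 37.9 and 38.7 CPM in H4K91Q, against 6.25, 25.3 and 16.8 CPM in H4WT, and it passed against H4WT in neither mutant (edgeR adjusted p = 0.338 and 0.0924). The libraries of every group were spread widely, and both mutants overlapped H4WT. Between H4K91Q and H4K91R the libraries did not overlap, as in 25.4% of all tested genes. The log2 change of Bmp3 there was 1.47 (interval 0.53 to 2.41), which did not pass (edgeR adjusted p = 0.0707). Bmp3 was chosen after its values were seen.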
